A study of Mus musculus with 20 samples.

Results

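Mouse embryonic stem cells of the line ES-E14TG2a, grown without feeders on gelatin in serum medium with leukemia inhibitory factor (LIF), were compared as WT and TKO cells at D0, before any differentiation. The comparison rests on 4 of the 20 libraries of the study, chosen by their genotype and day labels, with 2 biological replicates of WT and 2 of TKO. The other 16 libraries take both genotypes through neural progenitor differentiation, at D2, D4, D6 and D8, in N2B27 medium on laminin. ES-E14TG2a is an established male stem cell line, and both genotypes carry that background. The labels do not spell out TKO, and they do not say whether the TKO cells are 1 clone or how the line was made. They also do not say how the biological replicates were set apart. The p-values rest on a spread between replicate libraries shared over all 20 libraries, not on that of the 4 D0 libraries alone.

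Embryonic stem cells in serum and LIF are kept pluripotent by a network around Pou5f1, Sox2 and Nanog, and a few cells in such cultures drift towards primitive endoderm, the extraembryonic lineage that lays down basement membrane. DNA methylation at CpG sites is copied at replication by Dnmt1 with Uhrf1 and set anew by Dnmt3a and Dnmt3b with the cofactor Dnmt3l. It is known to silence germline genes with CpG-rich promoters, 1 parental copy of imprinted genes and many X-linked testis genes.

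The D0 libraries held 33546800 and 32203867 estimated counts in WT and 31302341 and 29603626 in TKO. Levels are CPM, counts scaled to library size with TMM factors, given for each library in the order replicate 1 and replicate 2, and a gene rose or fell where edgeR's quasi-likelihood test gave a Benjamini-Hochberg adjusted p under 0.05 over 18555 genes. Each such p is an adjusted p from that fit. Stem cell markers were present in all 4 libraries. The 10 of them summed to 6964 and 7193 CPM in the WT libraries against 6503 and 6363 in the TKO ones. None of the 10 rose and 4 fell. Trophoblast markers were all under 1 CPM in every library (4 of 4, Tpbpa at 0), as were Mixl1 and Mesp1 of 3 mesoderm markers. Fibroblast markers summed to 8.84 to 10.9 CPM in WT and 8.92 to 9.66 in TKO.

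At D0, 7294 genes passed, 39.3% of those tested, of which 3598 (19.4%) were higher and 3696 (19.9%) lower in TKO. Counts of list members that rose or fell are to be read against these shares. Fits of the D0 libraries alone lowered the count to 4877, with 2535 higher and 2342 lower. Those fits had 2 residual degrees of freedom and a wider spread (biological coefficient of variation 0.1, against 0.069 over all 20 libraries). Small differences made up most of the 7294, with a median log2 fold change of 0.64 among the genes higher and -0.50 among the genes lower. Beyond 4-fold the balance was uneven, with 611 genes (3.29%) higher and 247 (1.33%) lower. Of the 611, 480 had a WT mean under 1 CPM, and 249 of them a mean under 0.1 CPM. Of the 247, 6 had a WT mean under 0.1 CPM and 112 a mean from 0.1 to 1 CPM. The filter took in genes by their level in any group, and a gene near silence in WT can hardly fall. This split is thus partly set in advance.

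**Figure D1:**
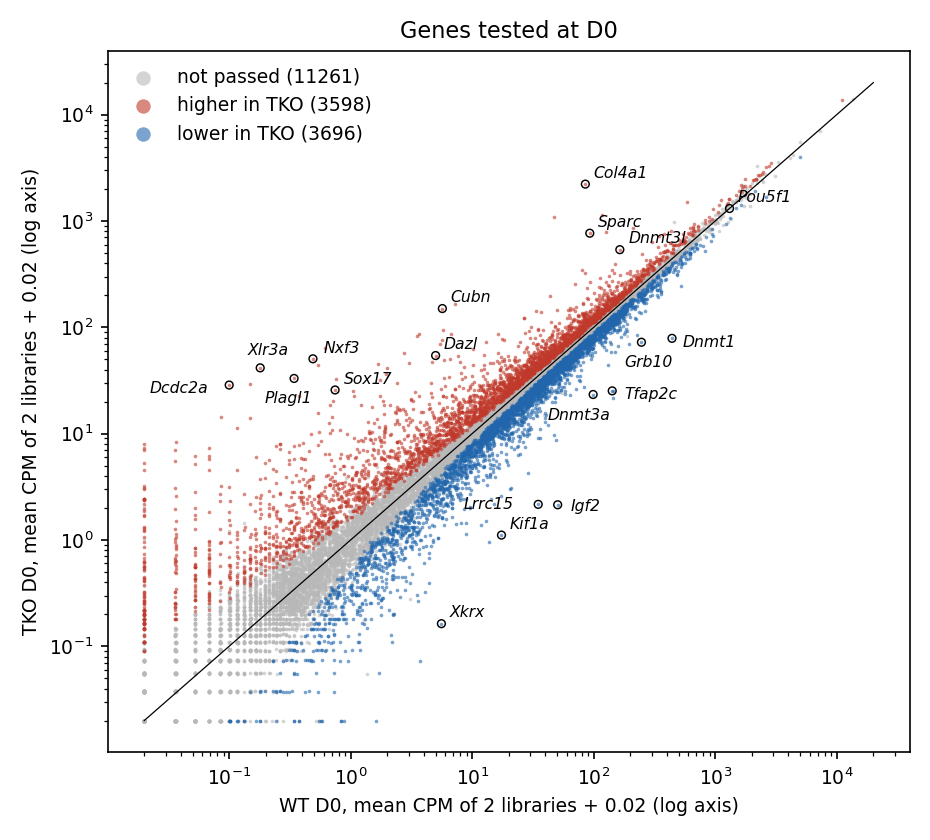
Mean CPM of the 2 TKO libraries against the mean CPM of the 2 WT libraries for each of the 18555 genes tested, on log axes with 0.02 CPM added, the line marking equal levels. Genes higher in TKO (3598) reach furthest from the line where WT is under 1 CPM, while Pou5f1 lies on the line and Dnmt1 below it.

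The WT libraries differed from each other more than the libraries of any other group. Their chi-square per degree of freedom was 29.6, against 4.16 between the TKO libraries. Of 7986 genes with at least 20 CPM in 1 of the WT libraries, 196 (2.45%) were over 1.5-fold apart and 52 over 2-fold, with 25 higher in replicate 1 and 27 in replicate 2. Between the TKO libraries 5 genes of 7912 were over 1.5-fold apart. Of the 52 genes, 14 (26.9%) passed in TKO against WT, against 47% of the others. A wide gap between the WT libraries itself makes a pass less likely, so this lower share was partly set in advance.

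Glycolysis and hypoxia genes were higher in WT replicate 1. Of 30, 21 were over 1.5-fold apart between the WT libraries, with a median log2 ratio of 0.84, and 2 between the TKO libraries. Bnip3, a mitophagy receptor induced in hypoxia, stood at 246 and 69.1 CPM in the WT libraries against 155 and 170 in the TKO ones, between the WT values, and passed in opposite directions without WT replicate 1 (log2 fold change 1.22) and without WT replicate 2 (-0.60). Egln3, an oxygen-sensing prolyl hydroxylase, stood at 109 and 26.6 against 73.6 and 86 CPM, and likewise gave 1.57 and -0.45. The list gave 3 higher and 7 lower at D0, 17 higher and 4 lower without WT replicate 1, and 1 higher and 17 lower without WT replicate 2. Without TKO replicate 1, or without TKO replicate 2, it gave 1 higher. Slc2a3 and Ddit4 (21.6 and 34.1 against 13.9 and 13.8 CPM, adjusted p = 0.000204) lay below both WT libraries, and P4ha1 (90.8 and 48.3 against 145 and 139 CPM, log2 fold change 1.03) above both.

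Integrated stress response genes were higher in WT replicate 2. Of 24, 16 were over 1.5-fold apart between the WT libraries, with a median log2 ratio of replicate 1 over replicate 2 of -1.17, and 0 between the TKO libraries. Chac1, a glutathione-degrading enzyme, stood at 6.67 and 72 CPM in the WT libraries against 16.7 and 13 in the TKO ones, and Trib3, a pseudokinase, at 15.8 and 93 against 27.8 and 20.9 CPM. Chac1 passed as lower without WT replicate 1 (log2 fold change -2.29) and as higher without WT replicate 2 (1.15). The list gave 4 higher and 1 lower, 2 higher and 14 lower without WT replicate 1, and 15 higher without WT replicate 2. Atf3 (1.69 and 9.03 against 20.1 and 18.6 CPM, log2 fold change 1.85, and 1.09 or 3.51 without WT replicate 1 or 2) and Psat1 (455 and 402 CPM in TKO, log2 fold change 0.56) lay above both WT libraries.

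**Figure D2:**
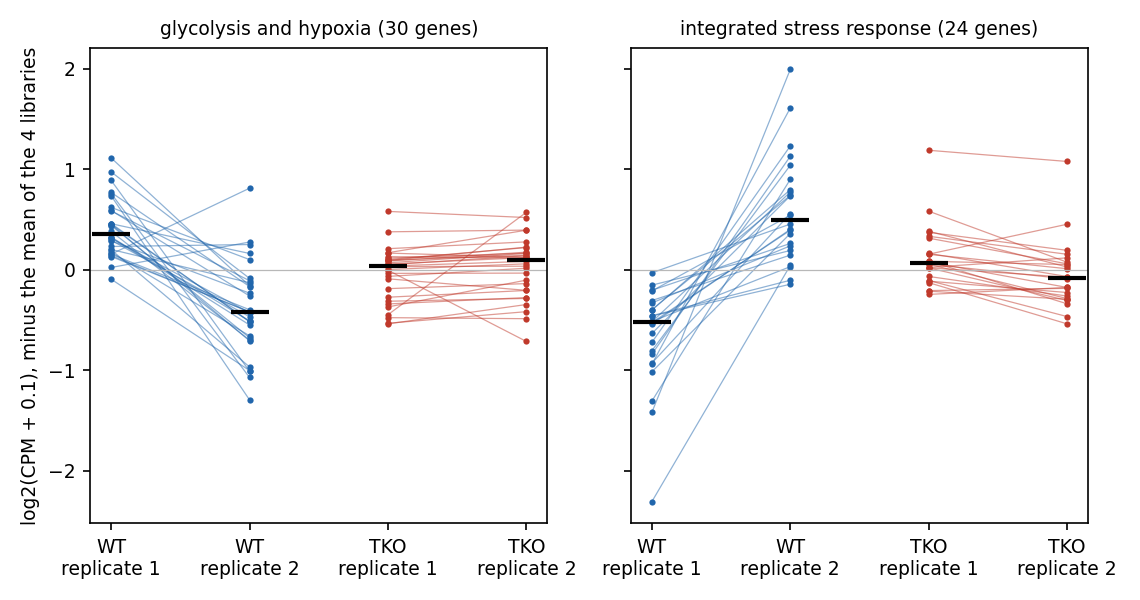
log2(CPM + 0.1) of each member minus its mean over the 4 D0 libraries, by library, for 30 glycolysis and hypoxia genes and 24 integrated stress response genes, lines joining the 2 libraries of a genotype and bars marking medians. The WT libraries part in opposite directions in the 2 lists, while the TKO libraries lie close together.

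Transcripts of all 3 catalytic DNA methyltransferases were lower in TKO, and that of their cofactor Dnmt3l was higher. Dnmt1, the maintenance enzyme, stood at 482 and 401 CPM in the WT libraries against 74.8 and 82.5 in the TKO ones (adjusted p = 1.62e-12, log2 fold change -2.49 with SE 0.089). Dnmt3a, a de novo enzyme, stood at 104 and 93.5 against 22.2 and 24.4 CPM (log2 fold change -2.09 with SE 0.076). Dnmt3b, the other de novo enzyme, which shares 13.5% of its 31-mers with other genes, stood at 76.7 and 89.7 against 26.2 and 28.2 CPM (log2 fold change -1.61 with SE 0.13). None of the 3 was at 0, and a count on the gene does not tell an intact transcript from an edited one. Dnmt3l, which has no catalytic activity of its own and stimulates Dnmt3a and Dnmt3b, rose from 142 and 186 to 542 and 532 CPM (adjusted p = 2.93e-07, log2 fold change 1.71 with SE 0.16).

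Other genes of the machinery changed less. Uhrf1, which brings Dnmt1 to hemimethylated DNA, stood at 360 and 359 against 418 and 439 CPM (adjusted p = 0.00352, log2 fold change 0.25 with SE 0.062, 24.2% of 31-mers shared). Tet1, Tet2 and Tet3, the dioxygenases that oxidise methylcytosine, did not pass, with log2 fold changes of 0.10, 0.00 and 0.37. Tet3 stood at 17.5 and 29.9 CPM in the WT libraries against 29.5 and 31.7 in the TKO ones, and its log2 fold change was 0.80 without WT replicate 2, where it passed, and 0.02 without WT replicate 1. Dppa3, which displaces Uhrf1 from chromatin, rose from 13.2 and 7.41 to 24.5 and 22 CPM (log2 fold change 1.17, 29.6% of 31-mers shared), and did not pass with DESeq2 (adjusted p = 0.0657). The methyl-CpG readers Mbd1 (log2 fold change -0.70), Mbd2 (-0.56) and Mbd4 (-0.36) fell. Of 20 genes of the DNA methylation machinery, 3 (15%) rose and 7 (35%) fell, against 19.4% and 19.9% of all genes. Their median log2 fold change was -0.04, against 0.00 over all genes tested.

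The largest gains in CPM at D0 were those of Col4a1, Col4a2 and Lama1, which encode basement membrane proteins. Of 20 basement membrane and parietal endoderm genes, 16 rose and 1 fell, with a median log2 fold change of 1.75. Their summed level was 2508 and 2661 CPM in the WT libraries against 8964 and 9771 in the TKO ones. More cells of a type and more RNA per cell, or fewer and less where a list is lower, cannot be told apart in these bulk libraries. Leaving out each library in turn gave 15 or 16 members higher.

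Type IV collagen, the network former of basement membranes, led the list. Col4a1 stood at 74.5 and 96 CPM in the WT libraries against 2161 and 2280 in the TKO ones (adjusted p = 2.76e-11, log2 fold change 4.70 with SE 0.21). Col4a2 stood at 42.6 and 51.5 CPM in the WT libraries against 1068 and 1133 in the TKO ones (log2 fold change 4.55 with SE 0.19). Both chains are made from a head-to-head pair of genes on chromosome 8, Col4a1 from 11198423 to 11312826 on the minus strand and Col4a2 from 11312805 to 11449287 on the plus strand of GRCm38. The lowest TKO library exceeded the highest WT library for both. 

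Laminin-111, the first laminin of the embryo, is built from Lama1, Lamb1 and Lamc1, and all of them rose. Lama1 went from 99.6 and 132 to 1074 and 1227 CPM (log2 fold change 3.31 with SE 0.20), Lamc1 from 534 and 632 to 1442 and 1592 CPM (1.38, SE 0.13), and Lamb1 from 91 and 79.7 to 289 and 355 CPM (1.92, SE 0.31). Lamb2, the beta chain of other laminins, fell instead, from 93.2 and 85 to 64.8 and 68.8 CPM (log2 fold change -0.42, adjusted p = 0.000127). Sparc, a collagen-binding matrix protein, rose from 87.6 and 98 to 759 and 775 CPM (log2 fold change 3.05 with SE 0.14). Thbd (log2 fold change 3.43) and Plat (3.59), secretory and surface products of parietal endoderm, rose from under 2 CPM in WT to between 8.78 and 18.1 CPM in TKO. Hspg2, the proteoglycan perlecan, did not pass, at 817 and 878 against 877 and 1015 CPM.

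Serpinh1, the collagen chaperone Hsp47, stood at 52.3 and 107 CPM in the WT libraries against 351 and 343 in the TKO ones (log2 fold change 2.12, and 2.73 without WT replicate 2). P4ha2, a collagen prolyl hydroxylase, stood at 21.3 and 15.1 against 72.7 and 79.1 CPM (log2 fold change 2.06 with SE 0.17). P4hb, its partner subunit, which is named for its gain in CPM, stood at 372 and 320 against 712 and 728 CPM (log2 fold change 1.06 with SE 0.07). In the list of unfolded protein and heat shock genes, 11 of 18 rose and 1 fell, with a median of 0.32, and without TKO replicate 1 the count higher was 6. Xbp1, a transcription factor of that response, went from 63.8 and 62.3 to 127 and 133 CPM (log2 fold change 1.04 with SE 0.10), and the chaperones Hspa5 (0.50), Calr (0.47) and Pdia4 (0.58) rose less.

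Primitive and visceral endoderm genes rose in the same libraries. Of 29 tested, 21 rose and 2 fell, all 21 by over 2-fold (6.87% of all genes tested did so), with a median log2 fold change of 2.81, or 2.60 with genes at 0 in a group set to their bound. The transcription factors that define the lineage all rose. Gata6 stood at 3.19 and 2.83 CPM in the WT libraries against 45.5 and 46.7 in the TKO ones (adjusted p = 5.34e-09, log2 fold change 3.93 with SE 0.27). Gata4 stood at 8.1 and 12.3 against 60 and 63.5 CPM (log2 fold change 2.60 with SE 0.25). Sox17 stood at 0.702 and 0.747 against 26.2 and 25.2 CPM (log2 fold change 5.14 with SE 0.34), and Foxa2 at 0.415 and 0.292 against 7 and 8.49 CPM (4.44, SE 0.25).

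Receptors and uptake proteins of the lineage followed. Pdgfra, the receptor that marks primitive endoderm, stood at 2.23 and 3.22 CPM in the WT libraries against 55.7 and 58.8 in the TKO ones (log2 fold change 4.39 with SE 0.27). Cubn, the endocytic receptor cubilin of visceral endoderm, stood at 4.46 and 6.85 against 138 and 162 CPM (log2 fold change 4.73 with SE 0.33). Dab2, an adaptor for such receptors, stood at 5.9 and 7.54 against 80.7 and 90.9 CPM (log2 fold change 3.68 with SE 0.24). For each of these genes the TKO libraries lay close to each other and well above both WT libraries. WT replicate 2 was the higher WT library for Gata4, Pdgfra, Cubn and Dab2, and its sum over 10 endoderm markers was 38.9 CPM against 27.9 in replicate 1, while TKO had 428 and 473 CPM.

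Markers of mature visceral endoderm stayed very low. Ttr and Afp, secreted carriers, had 0 counts in both WT libraries and 0.146 to 0.627 CPM in TKO, at least 8.13-fold and 5.92-fold higher against a floor of 3 counts over the WT group. Ttr did not pass without TKO replicate 1 (adjusted p = 0.0735). Apoe (1283 and 1437 against 1068 and 1035 CPM), Tdh (572 and 628 against 630 and 600) and Nid2 (561 and 427 against 535 and 559) were the most abundant members and did not pass. The sum over the list therefore moved only from 2539 and 2656 to 2905 and 2931 CPM. Trf, transferrin (log2 fold change -1.67), and Fgfr2 (-0.58) fell.

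**Figure D3:**
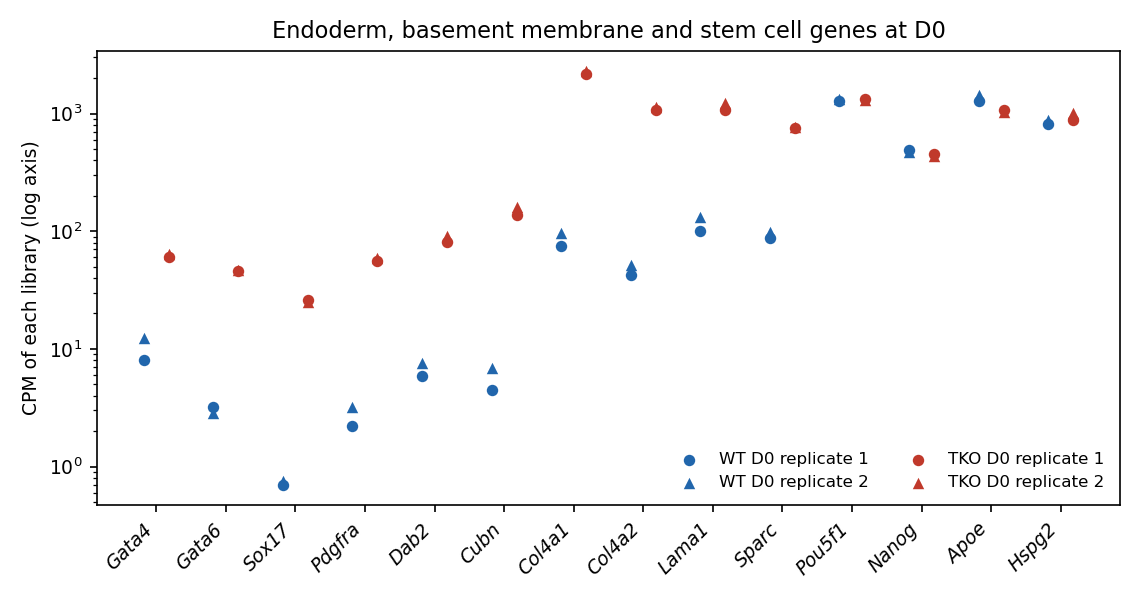
CPM of each D0 library on a log axis for endoderm genes (Gata4 to Cubn), basement membrane genes (Col4a1 to Sparc), stem cell factors (Pou5f1, Nanog) and 2 members that did not pass (Apoe, Hspg2), WT in blue and TKO in red. Col4a1 lies at 74.5 and 96 CPM in the WT libraries against 2161 and 2280 in the TKO ones, while the 4 libraries overlap for Pou5f1.

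Core pluripotency factors were held near their WT level. In this list 12.5% rose and 18.8% fell, near the 19.4% and 19.9% of all genes. Pou5f1, Oct4, stood at 1284 and 1340 CPM in the WT libraries against 1326 and 1294 in the TKO ones, with a log2 fold change of 0.00. Nanog stood at 494 and 467 against 451 and 435 CPM and did not pass (adjusted p = 0.612). Sox2 fell from 708 and 707 to 546 and 540 CPM (adjusted p = 5.35e-05, log2 fold change -0.38 with SE 0.058). Of 16 core genes, 2 rose and 3 fell, with 1 higher without TKO replicate 1 or without TKO replicate 2.

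The naive network, which holds the ground state, lay slightly lower. Of 19 genes, 2 rose and 8 fell, with a median of -0.25, but the count lower was 4 with DESeq2 and 4 to 7 when 1 library was left out. Tfcp2l1 stood at 488 and 474 against 302 and 325 CPM (log2 fold change -0.62 with SE 0.12), and Prdm14 at 46.9 and 42.4 against 27.4 and 26.2 CPM (-0.73, SE 0.12). Klf4 went from 531 and 653 to 424 and 447 CPM (-0.44, SE 0.091). Esrrb, at 1113 and 1188 against 918 and 919 CPM, did not pass (adjusted p = 0.124).

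Formative and primed genes, which mark the exit from the naive state, went both ways, with 8 of 18 higher and 4 lower. Sox3 rose from 3.73 and 2.79 to 19.7 and 20.4 CPM (log2 fold change 2.62 with SE 0.10), and Pou3f1, Oct6, from 10.3 and 10.6 to 31 and 30.2 CPM (1.55, SE 0.14). Fgf5, the usual epiblast marker, fell from 0.925 and 1.04 to 0.279 and 0.22 CPM (-1.96, SE 0.45). Lefty1, a Nodal inhibitor that shares 25.7% of its 31-mers, fell from 280 and 170 to 79.7 and 88.6 CPM (-1.42, SE 0.26). Foxa2, counted above with endoderm, is also on this list.

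Genes listed as germline genes that depend on promoter methylation were a mixed set at D0. Methylation was not measured in these libraries. The list was not silent in WT, where it summed to 531 and 509 CPM. Of 48 tested, 26 rose and 11 fell, with a median log2 fold change of 0.58. The promoters of a pair that rose, Dazl and Smc1b, and of a pair that fell, Sycp3 and Meioc, are printed with their CpG sites. These 4 genes were chosen after their values were seen. Each run is the 250 bases before the RefSeq start on GRCm38.p6, 5′ to 3′ on the strand of the gene, with every CpG in capitals. Dazl lies at chr17:50293621-50293870 (minus strand), Smc1b at chr15:85131958-85132207 (minus strand), Sycp3 at chr10:88459337-88459586 (plus strand) and Meioc at chr11:102665335-102665584 (plus strand).
Dazl: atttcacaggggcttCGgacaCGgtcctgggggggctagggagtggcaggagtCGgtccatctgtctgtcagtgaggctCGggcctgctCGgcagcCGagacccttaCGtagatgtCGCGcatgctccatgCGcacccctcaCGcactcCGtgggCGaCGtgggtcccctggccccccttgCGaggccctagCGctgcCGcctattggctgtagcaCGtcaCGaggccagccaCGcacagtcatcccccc
Smc1b: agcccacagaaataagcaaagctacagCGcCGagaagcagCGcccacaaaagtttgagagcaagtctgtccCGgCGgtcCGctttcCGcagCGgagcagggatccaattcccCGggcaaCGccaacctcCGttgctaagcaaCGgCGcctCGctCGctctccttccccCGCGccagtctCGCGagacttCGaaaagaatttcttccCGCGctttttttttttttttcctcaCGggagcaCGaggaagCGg
Sycp3: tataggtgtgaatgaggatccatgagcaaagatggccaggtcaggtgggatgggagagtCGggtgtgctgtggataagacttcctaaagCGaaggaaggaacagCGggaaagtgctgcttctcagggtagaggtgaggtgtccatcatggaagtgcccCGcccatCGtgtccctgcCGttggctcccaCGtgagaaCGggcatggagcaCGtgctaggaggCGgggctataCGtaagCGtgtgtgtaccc
Meioc: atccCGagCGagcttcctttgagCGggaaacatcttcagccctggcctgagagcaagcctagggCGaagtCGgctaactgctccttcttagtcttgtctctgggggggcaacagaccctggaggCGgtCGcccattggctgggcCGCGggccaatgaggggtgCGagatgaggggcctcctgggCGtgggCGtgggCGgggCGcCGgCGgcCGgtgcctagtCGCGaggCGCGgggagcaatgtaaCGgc
The runs hold 20 CpG for Dazl, 25 for Smc1b, 12 for Sycp3 and 22 for Meioc.

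Of the 48 germline genes, 40 had an entry among the RefSeq promoter windows of 300 bases, with a median of 18 CpG. The median was 7 over all 32851 windows and also 18 over the 13036 windows of genes tested here. The letters CACGTG, an E-box bound by Max and Mga, were in 42.5% of those 40, in 7.15% of all windows and in 10.7% of the windows of genes tested. The letters GCGGGA on either strand, an E2F-type motif, were in 50% of the 40, in 20% of all windows and in 36% of the windows of genes tested. Windows were found for 70.3% of the genes tested, under the 80% that a check over them would need, so those shares describe the matched genes.

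Among the germline genes that rose, Dazl, an RNA-binding protein of early germ cells, went from 5.87 and 4.09 CPM in WT to 58.6 and 49.8 CPM in TKO (adjusted p = 1.41e-10, log2 fold change 3.44 with SE 0.18). Smc1b, the meiotic cohesin subunit, went from 5.87 and 3.35 to 48.8 and 45.5 CPM (3.35, SE 0.20). Fkbp6, of the piRNA pathway, went from 0.446 and 0.585 to 15.6 and 15.7 CPM (4.91, SE 0.20). Asz1, another piRNA factor, had 0 counts in both WT libraries and reached 1.95 and 1.9 CPM in the TKO ones, which is at least 39.9-fold higher. Pet2 also had 0 counts in WT and reached 1.32 and 1.21 CPM in the TKO libraries, which is at least 26.2-fold higher. Tuba3a, a testis tubulin, went from 6.19 and 5.23 to 96 and 91.4 CPM (4.04), with 48.4% of its 31-mers shared.

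Germline genes that fell included several of meiosis. Sycp3, a lateral element protein of the synaptonemal complex, went from 45.3 and 51.6 to 8.6 and 8.6 CPM (log2 fold change -2.49 with SE 0.17, 46.5% of 31-mers shared). Meioc, which keeps cells in meiotic prophase, went from 13.5 and 16.8 to 5.05 and 5.05 CPM (-1.59, SE 0.14). Rec8, a meiotic cohesin, went from 22.4 and 19.5 to 7.7 and 7.28 CPM (-1.48, SE 0.17). Stra8, which licenses meiosis, went from 6.41 and 5.26 to 1.64 and 1.1 CPM (-2.09, SE 0.31). Tdrd1, a Tudor protein of the piRNA pathway, went from 3.67 and 4.52 to 0.279 and 0.329 CPM (-3.73, SE 0.40).

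Genes of germ cell specification did not join the rise, with 1 of 17 higher and 5 lower. Tfap2c, the AP-2 factor of primordial germ cells and trophoblast, fell from 146 and 138 to 25.5 and 25 CPM (adjusted p = 8.95e-12, log2 fold change -2.49 with SE 0.10). Alpl, tissue-nonspecific alkaline phosphatase, fell from 167 and 127 to 94.2 and 97.9 CPM (-0.61, SE 0.11). Ifitm3 rose from 68.3 and 58.8 to 132 and 113 CPM (0.94, SE 0.096, 20.5% shared).

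The X chromosome held more of the strong rises than its share of genes. Of 734 X-linked genes tested, 230 (31.3%) were higher, against 19.4% of all genes, and 103 (14%) were higher by over 4-fold, against 3.29% of all genes. Among genes with under 10% of 31-mers shared, the values were 11% of 507 X-linked genes and 3.23% of 13903 genes. Of the 103, 88 had a WT mean under 1 CPM, and 9 were named Xlr, 9 Mage and 10 Rhox. In the other direction, 4 X-linked genes fell by over 4-fold.

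The Xlr genes, a clustered X-linked lymphocyte-regulated family related to Sycp3, all rose (10 of 10), with a summed level of 0.702 and 0.747 CPM in the WT libraries against 130 and 118 in the TKO ones. Xlr3a stood at 0.223 and 0.0975 CPM in the WT libraries against 43.6 and 39.4 in the TKO ones (log2 fold change 7.97, and 7.51 to 8.67 with a library left out), with 60.2% of its 31-mers shared. Xlr4a had 0 counts in WT and reached 8.01 and 7.83 CPM in the TKO libraries, which is at least 164-fold higher, with 84.8% shared. No Xlr gene tested had under 10% shared, so the split of reads within the family is uncertain.

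Among the Mage genes, tumour antigens normally kept to the testis, 7 of 13 rose and none fell. Counting only genes with under 10% of 31-mers shared, 2 Mage genes rose. Magea4, with 7.41% shared, had 0.0319 and 0 CPM in the WT libraries against 5.33 and 5.64 in the TKO ones, a count ratio of 340 with a counting interval of 60.7 to 13492. Maged1, a broadly expressed member, stayed at 190 and 199 against 212 and 207 CPM and did not pass. Among the Rhox homeobox genes, 5 of 10 rose and 1 fell, or 3 and 1 counting only genes with under 10% shared. Rhox1 went from 1.88 and 1.53 to 10.1 and 8.42 CPM (log2 fold change 2.44 with SE 0.23), and Rhox13 from 1.63 and 1.53 to 10.1 and 7.61 CPM (2.49, SE 0.24). Of 6 Y-linked genes, 5 rose, among them Kdm5d, a histone demethylase, from 4.21 and 4.65 to 17.7 and 16.6 CPM (1.96, SE 0.10), while Eif2s3y, a translation initiation factor, stayed at 98.8 and 101 against 101 and 94.1 CPM.

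Imprinted genes are expressed from 1 parental copy, and were counted by the parent whose copy is active. Of 23 paternally expressed genes, 16 rose and 2 fell, with a median log2 fold change of 0.74. Plagl1, a zinc finger factor, went from 0.255 and 0.39 CPM in WT to 30 and 36 CPM in TKO (6.66, SE 0.26, adjusted p = 4.83e-12). Peg10, a retrotransposon-derived gene, went from 155 and 142 to 362 and 425 CPM (1.40, SE 0.087), and Dlk1, a Notch-family ligand, from 0.542 and 0.91 to 3.31 and 3.77 CPM (2.28, SE 0.25). Mest (1.53, 22% shared) and Nap1l5 (3.74) also rose.

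Igf2, the growth factor, went the other way, from 54.5 and 46.5 to 2.16 and 2.09 CPM (log2 fold change -4.57 with SE 0.25), with 61.9% of its 31-mers shared. Of 18 maternally expressed genes, 1 rose and 5 fell, with a median of -0.20. Grb10, an adaptor that damps insulin signalling, went from 202 and 292 to 75.3 and 69.4 CPM (-1.77, SE 0.13). Phlda2 went from 28 and 32.3 to 10.8 and 11.2 CPM (-1.45, SE 0.13), and Cdkn1c, a cyclin-dependent kinase inhibitor, from 17.8 and 20 to 9.79 and 9.77 CPM (-0.95, SE 0.11). Igf2r, at 228 and 257 against 232 and 257 CPM, did not pass. The imprinted non-coding RNAs were not analysed here.

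Among single genes with at least 5 CPM, unshared sequence and groups that did not overlap, the highest fold was that of Dcdc2a, a doublecortin domain gene, from 0.128 and 0.0325 to 29.5 and 27.6 CPM (log2 fold change 8.40 with SE 0.35, and 7.76 to 9.60 with a library left out). Nxf3, an X-linked RNA export factor of germ cells, went from 0.255 and 0.682 to 51.2 and 49.9 CPM (6.75, and 6.19 to 7.61). Efhc2, also X-linked, went from 0.383 and 0.325 to 22.1 and 22.6 CPM (5.97, SE 0.17). Cck, the peptide hormone precursor, and Dnajc5g, a testis co-chaperone, rose from 2 and 3 counts in the WT group, with count ratios of 160 (counting interval 43.8 to 1325) and 152 (51.5 to 738). Habp2 (5.06) completed the 10 with Magea4, Plagl1, Sox17 and Fkbp6.

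By the same limits (at least 5 CPM, under 10% of 31-mers shared and groups that did not overlap), the lowest fold was that of Xkrx, an X-linked gene of the XK-related family. It went from 6.25 and 4.87 to 0.139 and 0.146 CPM (log2 fold change -5.24 with SE 0.79). Lrrc15, a matrix-facing membrane protein, went from 36.6 and 33.1 to 2.05 and 2.23 CPM (-4.02, SE 0.23), and Kif1a, an axonal motor, from 19.4 and 15.5 to 1.11 and 1.06 CPM (adjusted p = 1.78e-10). Mobp (-3.89), Aspg (-3.11), Grm4 (-3.11), Evpl (-2.97), Pygl (-2.81), Grk3 (-2.78) and Padi2 (-2.76) followed, and for Pygl the value was -2.21 without WT replicate 1.

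By CPM and within the same limits, the largest falls were those of housekeeping-level genes. Slc2a3, the glucose transporter Glut3, lost most, from 2861 and 2330 to 1645 and 1719 CPM (adjusted p = 0.00142, log2 fold change -0.63 with SE 0.14), followed by Dnmt1. Enah, an actin regulator, went from 819 and 1042 to 637 and 655 CPM (-0.53, SE 0.083), and Dock6, a guanine nucleotide exchange factor, from 628 and 422 to 235 and 248 CPM (-1.12, SE 0.12). Ddb1 (-0.31) and Grb10 also belong here. Hspa9, Nedd4, Klf2 and Rcc2 passed with log2 fold changes from -0.44 to -0.16 but not with every library left out: without WT replicate 2, Hspa9 gave an adjusted p of 0.361, Rcc2 0.374 and Nedd4 0.0519. Without TKO replicate 2, Hspa9 gave 0.0536 and Rcc2 0.0647, and without TKO replicate 1, Nedd4 gave 0.123. Klf2 gave 0.0812 without TKO replicate 1 and 0.0961 without TKO replicate 2.

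**Figure D4:**
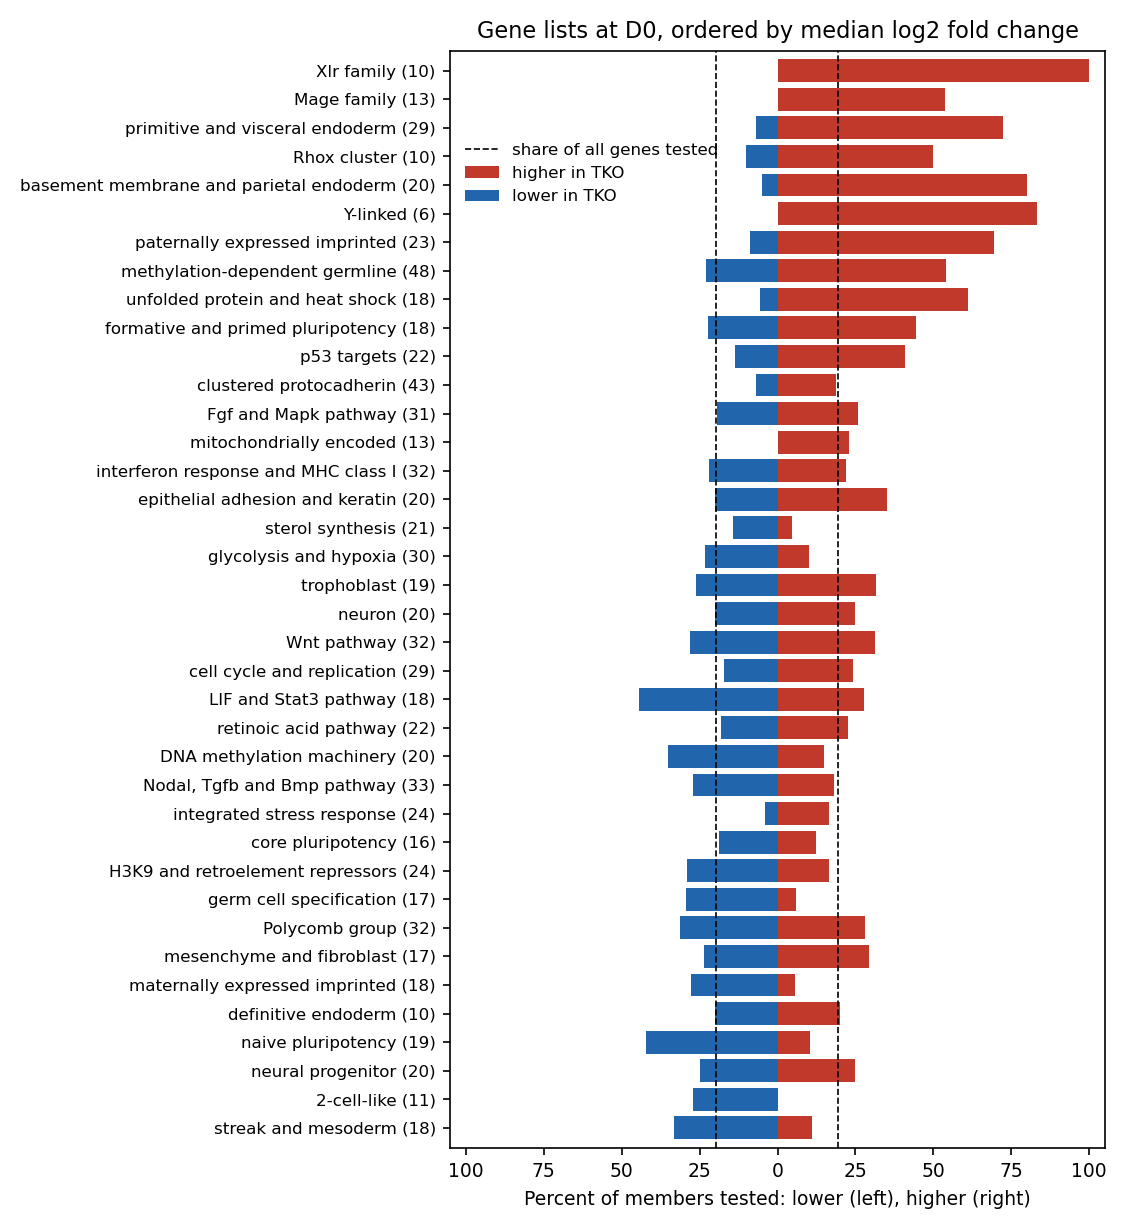
Percent of the tested members of each gene list that were higher (right, red) or lower (left, blue) in TKO at D0, with the number tested in brackets and dashed lines at the share of all genes, 19.4% higher and 19.9% lower. Lists are ordered by median log2 fold change, from streak and mesoderm at the bottom to the Xlr family at the top.

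Counts in the signalling pathways are read against the 19.4% of all genes that were higher and the 19.9% that were lower. Of 32 Wnt pathway genes, 10 (31.2%) rose and 9 (28.1%) fell, with 5 lower without TKO replicate 1. Dkk1, a secreted Wnt inhibitor, went from 0.287 and 0.292 to 5.26 and 5.02 CPM (log2 fold change 4.13 with SE 0.36), and Lef1, a nuclear effector, from 11.7 and 4.91 to 31 and 34.7 CPM (1.98, and 2.73 without WT replicate 1). Wnt3, a ligand of the primitive streak, had 0.765 and 0.357 CPM in WT and 0 counts in TKO, at least 10.5-fold lower.

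Of 33 Nodal, Tgfb and Bmp genes, 6 (18.2%) rose and 9 (27.3%) fell. Bmp2, a ligand made by visceral endoderm, went from 0.287 and 0.292 to 5.4 and 5.89 CPM (log2 fold change 4.27 with SE 0.38), and Fst, which traps activin, from 1.56 and 3.8 to 12.2 and 10.6 CPM (2.09, and 2.86 without WT replicate 2). Bmp7 went from 10.8 and 8.97 to 5.22 and 4.14 CPM (-1.07, SE 0.18).

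Of 31 Fgf and Mapk genes, 8 (25.8%) rose and 6 (19.4%) fell. Fgf4, the autocrine ligand of stem cells, did not pass, at 244 and 197 against 210 and 215 CPM. Etv4, an Ets factor downstream of Erk, went from 9.89 and 25.5 to 77.5 and 76.3 CPM (log2 fold change 2.12, and 2.96 without WT replicate 2). Klb, the co-receptor for endocrine Fgfs, went from 0.734 and 0.552 to 11.8 and 13.4 CPM (4.28, SE 0.37), while Spry2, a feedback inhibitor, went from 173 and 200 to 95.1 and 90.1 CPM (-1.01, SE 0.10). 

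Of 18 LIF and Stat3 genes, 5 (27.8%) rose and 8 (44.4%) fell, with 4 lower under length-scaled TPM counts. Socs2 fell from 168 and 194 to 88.6 and 91.1 CPM (log2 fold change -1.01 with SE 0.11), and Socs1 rose from 3.76 and 3.61 to 10.9 and 9.15 CPM (1.44, SE 0.18), both feedback inhibitors of cytokine signalling. In the retinoic acid pathway, with 5 of 22 (22.7%) higher and 4 (18.2%) lower, Cyp26a1, which degrades retinoic acid, went from 0.542 and 0.845 to 19.9 and 20.7 CPM (4.86, SE 0.29), and Stra6, a retinol uptake receptor, from 0.478 and 0.292 to 7.7 and 8.42 CPM (4.37, SE 0.29).

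Of 29 cell cycle and replication genes, 7 (24.1%) rose and 5 (17.2%) fell, near the 19.4% and 19.9% of all genes, with 3 lower without TKO replicate 2. Cdkn2a, which encodes p16 and Arf, went from 2.71 and 2.66 to 18.2 and 15.7 CPM (adjusted p = 6.02e-11, log2 fold change 2.65 with SE 0.13), and Ccnd2, a D-type cyclin, from 8.52 and 10.7 to 21.3 and 23.1 CPM (1.21, SE 0.13). Of 22 p53 targets, 9 rose and 3 fell, with 5 higher without WT replicate 1. Cdkn1a, p21, went from 26.2 and 29.2 to 64.2 and 60.5 CPM (1.17, SE 0.072), while Trp53 itself went from 508 and 544 to 398 and 393 CPM (-0.41, SE 0.069, 10.1% shared).

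Repressor genes changed by small amounts. Of the H3K9 and retroelement list 16.7% rose and 29.2% fell, and of the Polycomb list 28.1% and 31.2%. Of the interferon list 21.9% rose and 21.9% fell, against 19.4% and 19.9% of all genes. Of 24 genes for H3K9 methylation and retroelement repression, 4 rose and 7 fell, none by 2-fold, with 1 or 2 higher when any library was left out and 4 lower without TKO replicate 2. The highest change was that of Zfp809, a provirus-binding zinc finger, from 24 and 24.9 to 37.4 and 37.4 CPM (log2 fold change 0.61 with SE 0.075). Of 32 Polycomb genes, 9 rose and 10 fell, or 5 and 5 in the D0 libraries alone, with 6 lower without TKO replicate 1 or without TKO replicate 2. Bcor, of a variant Polycomb complex, went from 62.2 and 87.5 to 127 and 135 CPM (0.81, SE 0.11), and Mtf2, an accessory subunit, to 279 and 278 CPM in TKO (-0.46, SE 0.059). Of 32 interferon and class I antigen genes, 7 rose and 7 fell, with 4 lower without TKO replicate 1. Ifit2 rose from 1.37 and 1.04 to 4.42 and 3.44 CPM (1.70, SE 0.21), and Tap2, a peptide transporter, fell from 2.42 and 2.47 to 0.522 and 0.329 CPM (-2.50, SE 0.27).

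Genes of other lineages stayed low or split. Of streak and mesoderm genes 11.1% rose and 33.3% fell, of neural progenitor genes 25% and 25%, and of trophoblast genes 31.6% and 26.3%. Of all genes, 19.4% rose and 19.9% fell. Of 18 streak and mesoderm genes, 2 rose and 6 fell, with a median of -0.61, and Eomes went from 6.7 and 3.7 to 2.44 and 2.56 CPM (log2 fold change -1.06, adjusted p = 0.0634 without WT replicate 1). Of 20 neural progenitor genes, 5 rose and 5 fell. Sox1 rose from 26.7 and 36.1 to 55.6 and 55.4 CPM (0.82, SE 0.10), and Sox21 fell from 193 and 199 to 70 and 68 CPM (-1.51, SE 0.059). Of 19 trophoblast genes, 6 rose and 5 fell, with 3 lower without TKO replicate 1 or WT replicate 1. Krt8, a keratin of simple epithelia, rose from 23.5 and 24.4 to 67.1 and 65.4 CPM (1.47, SE 0.072, 32.3% shared).

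The D0 difference was partly kept on later days, which use other libraries. Of the 611 genes higher by over 4-fold at D0, 442 (72.3%) were higher at D2, 293 (48%) at D4, 373 (61%) at D6, 353 (57.8%) at D8 and 211 on all 5 days, while 93 were lower in TKO at D8. Of all genes tested, 18.4% were higher at D2, 15.1% at D4, 20.9% at D6 and 35.8% at D8. Of the 247 genes lower by over 4-fold, 58 (23.5%) were lower at D2, 82 (33.2%) at D4, 58 (23.5%) at D6, 89 (36%) at D8 and 15 on all 5 days. Of all genes tested, 16.9% were lower at D2, 13.2% at D4, 20.3% at D6 and 31.8% at D8. The test of the difference itself passed for 3421 genes (18.4%) between D2 and D0 and for 9695 (52.3%) between D8 and D0.

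The lists took separate courses. Basement membrane genes had medians of 1.75 at D0, 1.12 at D2 and 0.46 at D8, and the difference from D0 passed for 3 of 20 at D2 and 15 of 20 at D8. Endoderm genes had medians of 2.81, 2.76 and 0.56, with 3 and 23 of 29 passing. Germline genes had medians of 0.58, 1.14 and 5.28, with 17 and 40 of 48 passing, and the number higher went from 26 to 32 and 40. Xlr genes had medians of 8.33, 8.82 and 7.93, with 1 of 10 passing at each day. Meiotic genes that were lower in TKO at D0 could be higher later, as for Stra8, with a log2 fold change of -2.09 at D0 and 2.04 at D2.

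**Figure D5:**
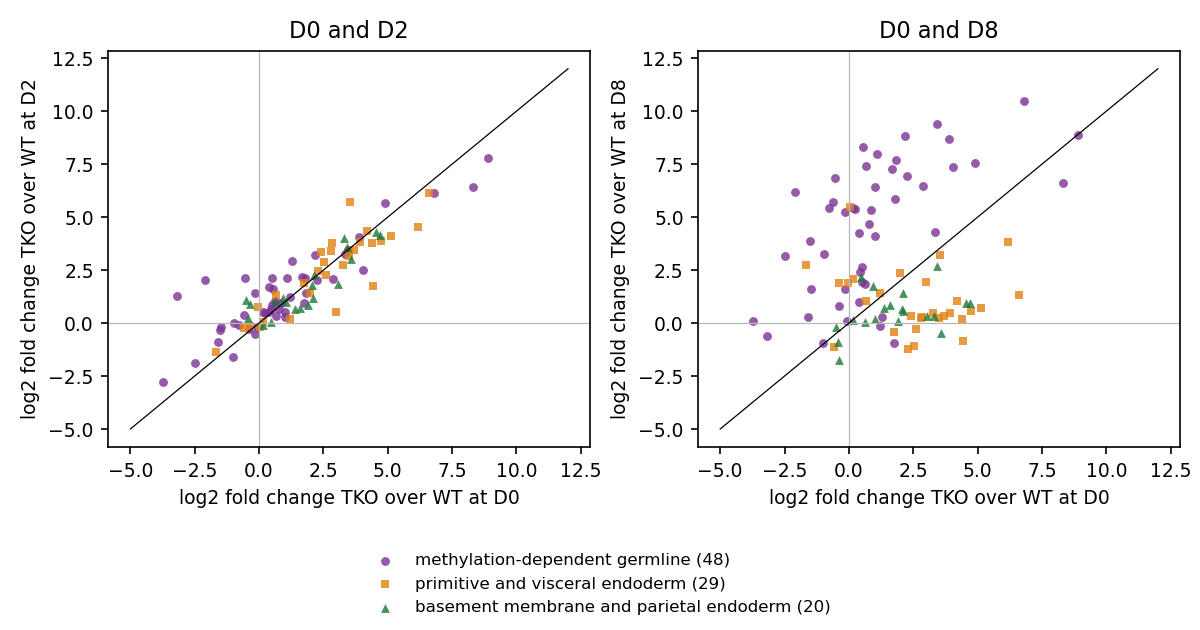
log2 fold change of TKO over WT at D2 (left) and D8 (right) against that at D0 for the tested members of 3 lists, the line marking equal values. Endoderm and basement membrane genes lie near the line at D2 and below it at D8, and most germline genes lie above it at D8.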

How the data were processed

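Stranded libraries of polyadenylated RNA were made from WT and TKO ES-E14TG2a cells, per the labels' protocols. The deposited files give estimated counts and TPM for 119414 transcripts; the submitters' processing notes name GRCm38, Trim Galore 0.6.2 and kallisto, with no kallisto version. Estimated counts were summed per gene over 116728 transcripts matched to GENCODE M21 and rounded. The 2686 unmatched transcripts, 0.943% to 1.1% of counts, were left out. The effective lengths and lengths in the deposited tables were used only for length-scaled TPM. A single edgeR 4.0.16 quasi-likelihood fit (TMM, filterByExpr on 10 groups) took in the 20 libraries and tested 18555 genes, so that 10 residual degrees of freedom set the spread (common BCV 0.069). Genes with at least 10% of 31-mers shared with other genes are uncertain, since kallisto divides such reads.

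The members and the gene lists were chosen with earlier results of these data known. Named were DNA methylation genes, the 10 highest and lowest folds and CPM gains and losses (at least 5 CPM, groups not overlapping, under 10% of 31-mers shared, no predicted or clone name), up to 6 changed and 3 most abundant members per list, the most different genes between days (some genes that this rule or a list takes in are not reported here), and the WT genes furthest apart, of which Rpl41 (log2 fold change 0.41) is not described further. Further list members and markers were chosen after their values were seen. Counting intervals (95%) and the floor of 3 counts cover counting error only. Tested on simulated data of 16633 genes for this comparison, the fit recovered 40 of 67 genes changed 1.5-fold and 53 of 67 at 2-fold. At 4-fold it recovered 64 of 66, with 7 false calls in the whole simulation. The simulation gave each gene the same spread in every group and changed 200 genes. It leaves out the wider spread of the WT D0 libraries, so its false calls do not measure the error of the D0 calls. In a pairing check, log ratios of replicate 1 over replicate 2 were compared between WT and TKO at D0 (correlation -0.032 over 13831 genes). It cannot tell whether samples of the same number were handled together. Alternatives were relative log expression scaling, no count filter, a replicate block, length-scaled TPM, stricter thresholds, DESeq2 1.42.0, the compared groups alone, each library left out, protein-coding genes and unshared genes.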

Additional observations from a re-analysis of the deposited data

Results flagged for a closer look

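The difference between TKO and WT was not the same at D0 as on later days for 3421 genes at D2 and 9695 genes at D8, by edgeR's test of the difference (adjusted p under 0.05). Between D0 and D2 the genes moving up most in TKO relative to WT were Pga5, a pepsinogen (log2 difference 5.41, 13.1 and 15.3 CPM in WT and 13.8 and 11.9 in TKO at D0), Mfap4, a matrix protein (4.36), Stra8 (4.12) and Acpp, an acid phosphatase (4.10). Those moving down most were Cyp26a1 (-4.60), Hopx, a homeodomain-only protein (-4.06), H2-Eb1, a class II antigen chain (-3.61), and Dcdc2a (-3.20). Dcdc2a gave -2.61 with an adjusted p of 0.0814 without WT D2 replicate 2. Hopx went from 0.606 and 0.747 CPM in WT to 10.1 and 11.3 in TKO at D0, a difference not seen at D2 (log2 fold change -0.09). Hopx was higher in TKO again at D6 (1.32) and D8 (3.12).

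Between D0 and D8 the largest upward differences were those of Stra8 (8.29), Mov10l1, a piRNA helicase (7.77), Tex101, a germ cell surface protein (7.40), and Tmem54 (7.25). Large downward differences were those of Fstl5, a follistatin-like protein (-9.52), Nkx6-1, a ventral neural tube factor (-8.38), and Asxl3, a Polycomb-linked gene (-8.36). Those 3 genes were under 4 CPM in every D0 library, and each had 1 to 4 counts over the WT D0 group, so the fitted values are not bounds.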

How the results depend on the processing

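Requiring a change of at least 2-fold left 862 genes at D0 (600 higher, 262 lower), 149 for D2 against D0 and 2647 for D8 against D0. The D0 libraries alone gave 2342 genes lower, from 2 residual degrees of freedom. An adjusted p under 0.01 left 1700 genes for D2 against D0. Leaving out each library gave 5407 to 6921 genes at D0, 2687 to 3318 higher, 2720 to 3603 lower, 2122 to 3894 for D2 against D0 and 8654 to 9442 for D8 against D0. The D2 count was 2215 without TKO D0 replicate 1, 2253 without TKO D2 replicate 2 and 2122 without WT D2 replicate 2. The other settings stayed within 1.5 times of each count. No named gene that passed at D0 reversed under any setting. Of named genes that did not pass, 9 passed in opposite directions by which WT D0 library was left out, among them Bnip3, Egln3 and Chac1. Of 280 named genes that passed at D0, 214 passed under every setting other than the stricter thresholds.

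The replicate block gave 7223 genes at D0, 3577 higher and 3646 lower, 3369 for D2 and 9631 for D8 against D0, and the pairing check (-0.032) gives no sign that the numbers pair the samples; among named genes Jarid2 (adjusted p = 0.0509) and Tmem173 (0.0567) lost the call under the block. With 2 libraries per group, precision is limited by their number, and a library left alone takes its spread from the remaining groups.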
